A study of Homo sapiens with 6 samples.

Results

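The collagens are the genes that code for the chains of the triple-helical proteins of the extracellular matrix. They were taken here as every gene whose symbol has the form COL, a number, A and a number. The gene name field of the scanner files repeats the identifier of the probe, so each probe was given its gene by an exact match of its sequence, in sense, to a protein-coding transcript, and antisense genes were left out. This gave 63 probes for 42 genes, out of 125601 probes on the array and 18590 genes with such a match. COL4A3 and COL25A1 had no matching probe and were not analysed here. A gene with more than 1 probe is given by its brightest, judged by the mean in the deposited table.

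SKOV3 is an established human ovarian cancer line. The sample characteristics name it SKOV-3, while the titles write SKOV-1 and the growth protocol SKOV-13. The study asked which transcripts differ after 1α,25(OH)2D3, the active hormone made from vitamin D. The 3 arrays labelled 1α,25(OH)2D3 are described as coming from cells given 100 nmol/L for 72 h. The 3 arrays labelled vehicle are described as coming from cells given ethanol, the solvent, for the same 72 h. All 6 are single-color Agilent arrays of 1 cell line, and nothing in the labels says that the replicates were separate cultures, so the p-values measure only the spread between these samples, which may be technical. Replicates 1 and 2 of 1α,25(OH)2D3 shared slide 1, and the remaining 4 arrays shared slide 2. A value with the slide as a block therefore rests on replicate 3 of 1α,25(OH)2D3 against the 3 vehicle arrays.

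A collagen molecule is built from 3 chains, each a long repeat of glycine followed by any pair of residues, very often proline or hydroxyproline. Fibrillar collagens give tissue its tensile strength, type IV collagens form the sheet of the basement membrane, and type VI collagens form beaded filaments around cells. In the ovary, fibroblasts make most fibrillar collagen, while epithelial cells rest on a basement membrane that carries type IV.

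A value below is a log2 signal relative to the 75th percentile of its own array, so that 0 is the signal of the probe at that percentile. Signals of different probes are not on a common scale, and no gene is ranked against another. A probe was called well above background where the scanner software marked most of its spots so.

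CYP24A1, which encodes the enzyme that breaks down 1α,25(OH)2D3 and is the best known transcript induced by it, went against the labels. Its probe A_23_P28815, in the 3′ UTR, read -5.10, 6.70 and -3.80 under the label 1α,25(OH)2D3 and 6.90, -2.48 and 7.29 under the label vehicle, in the order of replicates 1 to 3 that is kept below. It was well above background on 1 of 3 arrays labelled 1α,25(OH)2D3 and on 2 of 3 labelled vehicle. Every direction given here is therefore a direction between labels, and every lack of a difference is one between labels too. Whether the labels separate treated from untreated cells was not tested. The share of probes well above background was 57.5% and 54.5% on the arrays of slide 1 and 49.1% to 52.9% on those of slide 2. No spot was saturated, and rank correlations between arrays were at least 0.9533.

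A collagen probe can lie in the repeat or outside it, and the probe sequences show which stretch of a chain was read. The coding probes of COL16A1 and COL13A1 are shown as examples from the repeat, those of COL1A2, COL6A2 and COL8A1 as examples from outside it. Capitals mark glycine codons in the reading frame of the transcript, and the positions are on hg38.
COL16A1, chr1:31682935-31682994, minus strand, exon 37 of 71: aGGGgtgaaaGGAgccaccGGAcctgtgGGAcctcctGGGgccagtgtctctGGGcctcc
COL13A1, chr10:69953974-69957011, plus strand, across the junction of exons 36 and 37 of 38: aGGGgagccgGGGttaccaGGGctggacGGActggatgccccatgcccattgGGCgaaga
COL1A2, chr7:94429331-94429390, plus strand, exon 51 of 52: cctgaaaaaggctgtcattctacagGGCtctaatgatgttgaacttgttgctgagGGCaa
COL6A2, chr21:46126172-46126231, plus strand, exon 26 of 28: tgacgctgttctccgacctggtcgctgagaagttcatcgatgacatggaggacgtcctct
COL8A1, chr3:99795921-99795980, plus strand, exon 4 of 4: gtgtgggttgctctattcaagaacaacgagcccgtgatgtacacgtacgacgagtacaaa
The COL16A1 probe held 6 glycine codons among 19, with a run of 5 in the spacing of the repeat, and the COL13A1 probe held 5 with a run of 4. The COL1A2 probe held 2 glycine codons with no run, and the COL6A2 and COL8A1 probes held none. Of the 63 collagen probes, 43 lay in a 3′ UTR, 17 in coding sequence and 3 across both. In the genome, 60 had 1 match and 3 crossed an exon junction.

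Of the 42 genes, 24 were well above background on all 6 arrays, 7 on some and 11 on none. The count per array ran from 24 on the array labelled vehicle replicate 2 to 29 on the array labelled vehicle replicate 3. The flag is permissive: the leukocyte markers PTPRC, CD3E and CD14, listed for the check of cell type, carried it on all 6 arrays. Of 6 epithelial markers measured, 6 carried it on all arrays. Of 6 mesenchymal markers, LUM carried it on 1 array and DCN, PDGFRA, FAP, THY1 and POSTN on none. Of 4 endothelial markers, 3 carried it on all arrays and TEK on none. KRT18 and PDGFRB had no probe. In a culture, fewer cells with a transcript and less of it per cell cannot be told apart.

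**Figure D1:**
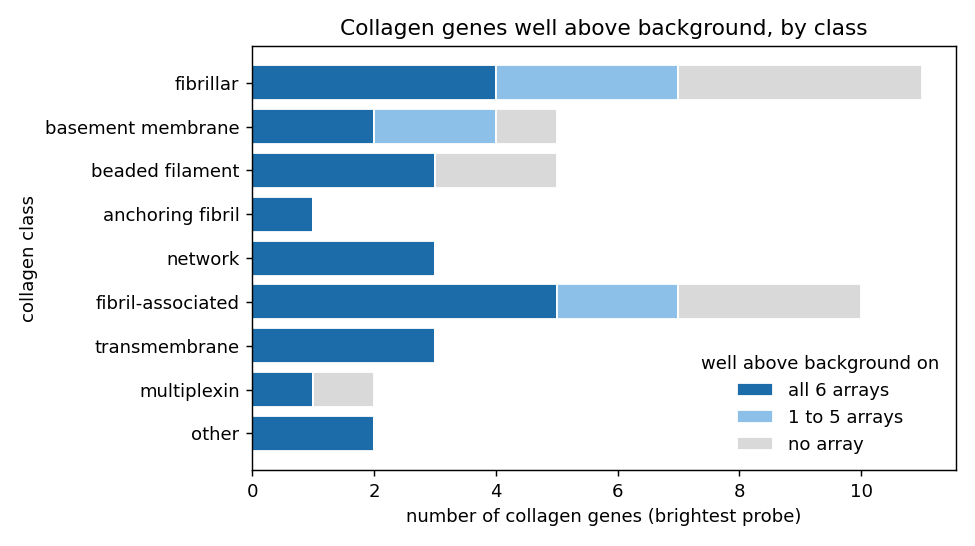
Number of collagen genes, by class, whose brightest probe was well above background on all 6 arrays (dark), on 1 to 5 arrays (light) or on no array (grey). Of 11 fibrillar genes, 4 were above background on all 6 arrays and 4 on none, while all 3 network and all 3 transmembrane genes were on all 6.

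The fibrillar class was divided. COL5A1, COL5A2, COL11A2 and COL27A1 were well above background on all 6 arrays, COL1A1, COL1A2 and COL5A3 on some, and COL2A1, COL3A1, COL11A1 and COL24A1 on none. COL3A1, the partner of type I collagen in stretchable tissue, read -5.29, -5.15 and -4.98 under 1α,25(OH)2D3 and -5.06, -4.81 and -5.09 under vehicle. Of 5 type IV genes, COL4A1 and COL4A2 were on all 6 arrays, COL4A4 on 5, COL4A5 on 1 and COL4A6 on none. Of 5 type VI genes, COL6A1, COL6A2 and COL6A3 were on all 6 and COL6A5 and COL6A6 on none.

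Among the remaining classes, COL7A1 (anchoring fibrils) was well above background on all 6 arrays. So were COL8A1, COL8A2 and COL10A1 (networks), COL13A1, COL17A1 and COL23A1 (membrane-spanning), and COL26A1 and COL28A1. Of 10 fibril-associated genes, COL9A2, COL12A1, COL14A1, COL16A1 and COL19A1 were on all 6, COL9A3 on 2, COL20A1 on 1, and COL9A1, COL21A1 and COL22A1 on none. COL18A1, which yields endostatin, was on all 6 and the related COL15A1 on none.

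Probes of a gene did not always read alike. Of 17 genes with several probes, 5 had the same number of arrays above background for every probe. In another 5, COL6A3, COL8A2, COL13A1, COL14A1 and COL19A1, one probe was above background on all 6 arrays and another on none. For COL19A1 every probe but the brightest was on none. For 9 genes the brightest probe did not match the principal transcript, COL11A2, COL13A1, COL17A1 and COL28A1 among the tested ones. Those probes matched only other annotated transcripts of the gene, and which RNA gave their signal was not tested. With the brightest probe on the principal transcript, 21 genes were on all 6 arrays.

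The labels were compared for the 26 collagen genes with a signal well above background on every array of 1 label or both. No collagen passed an adjusted p under 0.05 in limma with the Benjamini-Hochberg adjustment, where the smallest adjusted p was 0.711, and of all 63332 probes tested 0% passed. At an unadjusted p under 0.05, 3 of 26 collagens passed in limma and 1 in the methods' t-test, beside 6.46% of all probes in limma and 5.51% in the t-test. Past 2-fold with an unadjusted p under 0.05 there were 0 collagens, beside 0.812% of all probes. Without the array labelled vehicle replicate 1 this count was 1 (COL1A2), and without vehicle replicate 2 it was 1 (COL8A1). The log2 fold change, label 1α,25(OH)2D3 minus label vehicle, was above 0 for 8 and below 0 for 18. Its median was -0.13, against 0.002 over all probes tested and -0.019 over those matching a protein-coding transcript. The collagen median was 0.02 without the array labelled vehicle replicate 3, and -0.03 with the slide as a block. The log2 fold change ran from -0.69 for COL6A3 to 1.62 for COL1A2. For COL1A2, 1 of the 3 vehicle arrays was not well above background, so it was tested only through the label in which it read higher. The labelled groups did not overlap for 1 collagen that read higher under 1α,25(OH)2D3 (6.3% of all probes) and for 3 that read lower (5.18% of all probes).

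**Figure D2:**
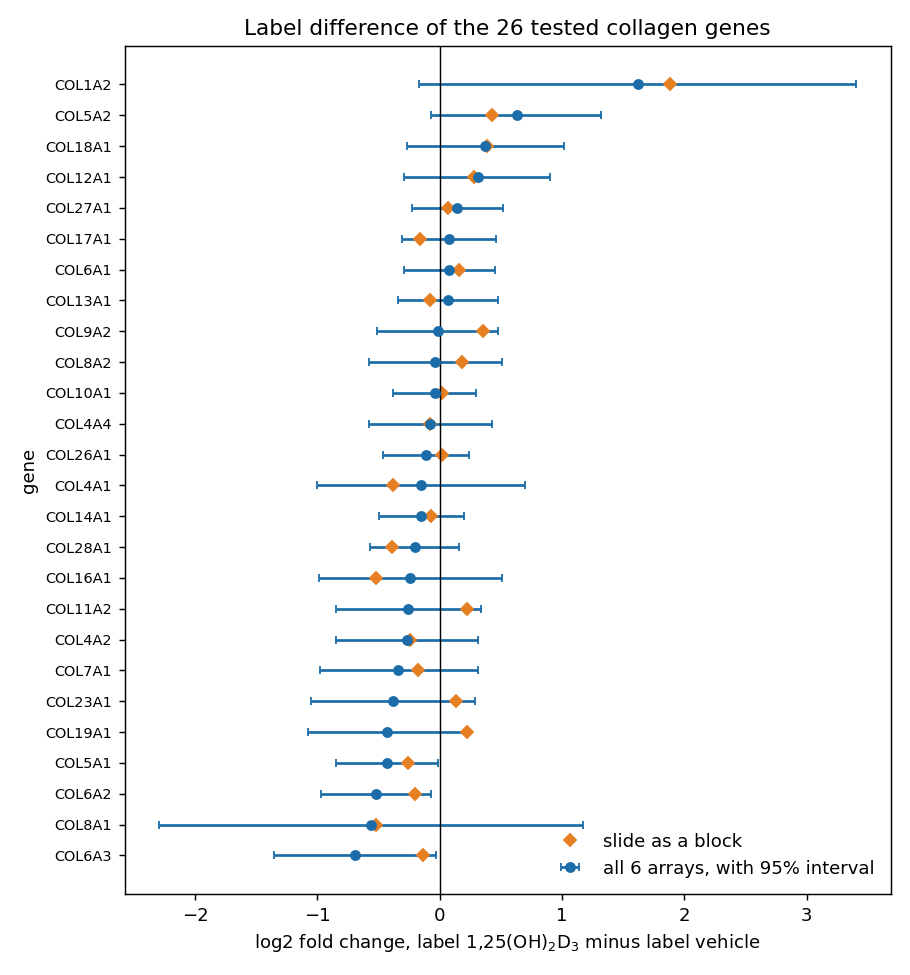
Log2 fold change (label 1α,25(OH)2D3 minus label vehicle, horizontal axis) of the 26 tested collagen genes with its 95% interval (circles), and the value with the slide as a block (diamonds). The intervals of COL6A2, COL6A3 and COL5A1 lie below 0 before any adjustment, and their slide-blocked values are nearer to 0.

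Type I collagen, the chief fibril of skin, bone and scar, is a trimer of COL1A1 and COL1A2 chains. COL1A1 (chr17:50184101-50201632) read -3.46, -2.19 and -4.12 under 1α,25(OH)2D3 and -2.52, -4.81 and -1.62 under vehicle. It was well above background on the arrays labelled 1α,25(OH)2D3 replicate 2, vehicle replicate 1 and vehicle replicate 3 only, and was not tested. COL1A2 (chr7:94394895-94431227) read 1.35, 0.16 and 1.14 under 1α,25(OH)2D3 and 0.52, -2.67 and -0.05 under vehicle. Its signal on the array labelled vehicle replicate 2 was not well above background, and the labels overlapped. COL1A2 had a log2 fold change of 1.62 ± 0.769 (SE, 3 arrays a label) with a 95% interval of -0.17 to 3.40, and it was 0.65 without the array labelled vehicle replicate 2.

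Type V collagen sets the diameter of type I fibrils. COL5A1 (chr9:134641803-134844843), its main chain, read 2.79, 2.59 and 2.93 under 1α,25(OH)2D3 and 2.95, 3.35 and 3.28 under vehicle. The labels did not overlap, by a gap between replicate 3 of the former and replicate 1 of the latter that was smaller than the spread within either. The difference for COL5A1, as log2 fold change, was -0.43 ± 0.181 (SE), and -0.26 with the slide as a block.

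COL5A2 (chr2:189031898-189225312), the partner chain, differed in the other direction. It read 1.72, 1.17 and 1.16 under 1α,25(OH)2D3 and 1.05, 0.09 and 1.03 under vehicle, so the labels did not overlap here either. The array labelled vehicle replicate 2 was the lowest, as for COL1A2. COL5A2 had a log2 fold change of 0.63 ± 0.299 (SE), with an interval of -0.07 to 1.32, and 0.31 without that array. COL27A1, a fibrillar collagen of cartilage, read 4.47, 4.40 and 4.32 under 1α,25(OH)2D3 and 4.14, 4.16 and 4.45 under vehicle. The labels overlapped within a span of 0.33, and the log2 fold change was 0.14 with an interval of -0.23 to 0.52.

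**Figure D3:**
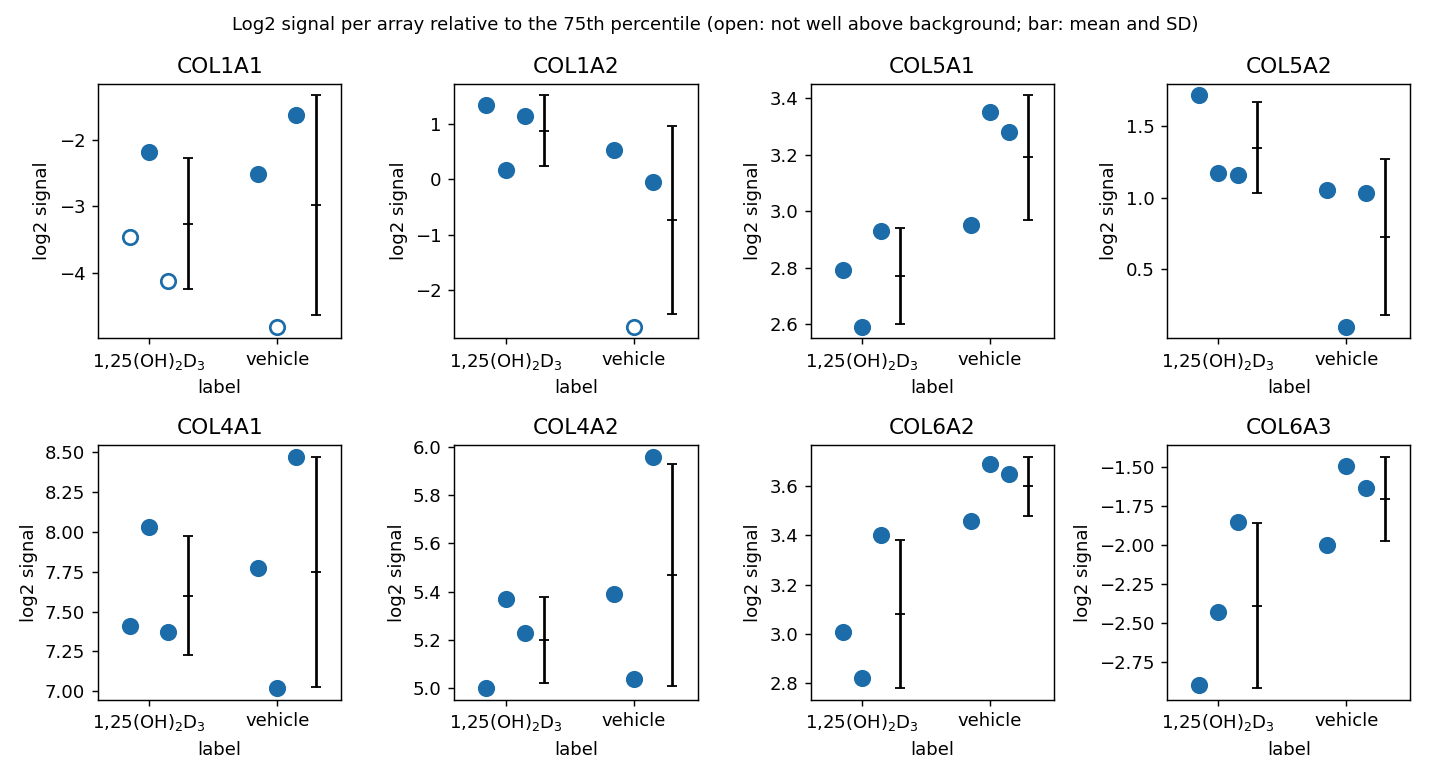
Log2 signal, as defined in the text (vertical axis), on each array of both labels for 8 collagen genes, with the mean and SD of each label, and open circles where the probe was not well above background. COL1A2 and COL5A2 are lowest on the array labelled vehicle replicate 2, and COL4A1 and COL4A2 are highest on the array labelled vehicle replicate 3.

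COL4A1 and COL4A2 code for the chains of the commonest basement membrane network and lie head to head on chromosome 13. COL4A1 (chr13:110148963-110307157, minus strand) read 7.41, 8.03 and 7.37 under 1α,25(OH)2D3 and 7.77, 7.02 and 8.47 under vehicle. COL4A2 (chr13:110305812-110513209, plus strand) read 5.00, 5.37 and 5.23 under 1α,25(OH)2D3 and 5.39, 5.04 and 5.96 under vehicle. Both were highest on the array labelled vehicle replicate 3, and for both the vehicle arrays spanned the whole range of the others or nearly so. The log2 fold change was -0.15 ± 0.366 (SE) for COL4A1 and -0.27 ± 0.250 for COL4A2. Without the array labelled vehicle replicate 3 the COL4A1 value was 0.21 and the COL4A2 value -0.02.

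The stretch of 126 bases between the RefSeq start sites of this pair (GRCh38.p14) is printed because both genes run from it in opposite directions. In the gene coordinates given above, from GENCODE, the start of COL4A2 lies inside COL4A1, so the gap holds for the RefSeq start sites only. Transcription from the stretch was not measured. Capitals mark the motifs found.
chr13:110307158-110307283, plus strand: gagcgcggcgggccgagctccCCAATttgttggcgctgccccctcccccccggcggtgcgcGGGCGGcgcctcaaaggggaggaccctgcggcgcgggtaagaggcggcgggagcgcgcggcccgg
Searched on both strands, CCAAT occurred 1 time, GGGCGG 1 time and TATAAA 0 times. In the 126 bases before the start of all 35116 promoters in the table, CCAAT was found in 21.1%, GGGCGG in 34.6% and TATAAA in 5.87%. The stretch was 80.2% G and C.

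Type VI collagen is assembled from COL6A1, COL6A2 and, in its classical form, COL6A3. COL6A1 (chr21:45981770-46005050) read 2.34, 2.12 and 2.35 under 1α,25(OH)2D3 and 2.11, 2.12 and 2.34 under vehicle. It was among the steadiest of the tested collagens, with a log2 fold change of 0.08 and an interval of -0.29 to 0.45.

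COL6A2 (chr21:46098112-46132848) read 3.01, 2.82 and 3.40 under 1α,25(OH)2D3 and 3.46, 3.69 and 3.65 under vehicle, and the labels did not overlap. COL6A3 (chr2:237324003-237414328) read -2.90, -2.43 and -1.85 under 1α,25(OH)2D3 and -2.00, -1.49 and -1.63 under vehicle, and the labels overlapped. For both, the arrays on slide 1 were the lowest and replicate 3 of 1α,25(OH)2D3, on slide 2, lay close to the vehicle arrays. COL6A2 had a log2 fold change of -0.52 ± 0.194 (SE), and -0.20 with the slide as a block. The second brightest probe of COL6A2, also well above background on all 6 arrays, gave -0.27, and there the labels overlapped. The second probe of COL6A3 was well above background on no array. For COL6A3 the log2 fold change was -0.69 ± 0.283, with -0.26 after normexp background correction and -0.14 with the slide as a block. The part of the slide in these values was not tested further.

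COL8A1, a chain of the hexagonal network under endothelium, had one of the widest spreads. It read -0.39, -0.27 and -0.28 under 1α,25(OH)2D3 and 0.40, -1.59 and 1.91 under vehicle. The 3 arrays labelled 1α,25(OH)2D3 lay together, inside the range of the vehicle arrays, and the log2 fold change was -0.56 ± 0.745 (SE). Without the array labelled vehicle replicate 3 the COL8A1 value was 0.28, and without vehicle replicate 2 it was -1.47.

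Among fibril-associated collagens, COL12A1, which decorates type I fibrils, read 3.15, 2.68 and 2.87 under 1α,25(OH)2D3 and 2.93, 2.07 and 2.78 under vehicle. Its log2 fold change was 0.31 ± 0.256 (SE), with overlapping labels, and 0.05 without the array labelled vehicle replicate 2. COL19A1 read -2.46, -2.61 and -1.55 under 1α,25(OH)2D3 and -1.67, -1.81 and -1.84 under vehicle. Its log2 fold change of -0.43 became 0.22 with the slide as a block.

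COL18A1 read 3.18, 2.42 and 2.82 under 1α,25(OH)2D3 and 2.52, 1.96 and 2.82 under vehicle, a log2 fold change of 0.37 ± 0.279 (SE) with overlapping labels, and 0.14 without the array labelled vehicle replicate 2. COL28A1 read 1.00, 1.16 and 0.81 under 1α,25(OH)2D3 and 1.19, 1.17 and 1.22 under vehicle. The labels did not overlap for COL28A1, by 0.01 between the nearest pair of values as rounded, and its log2 fold change was -0.20 ± 0.159.

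**Figure D4:**
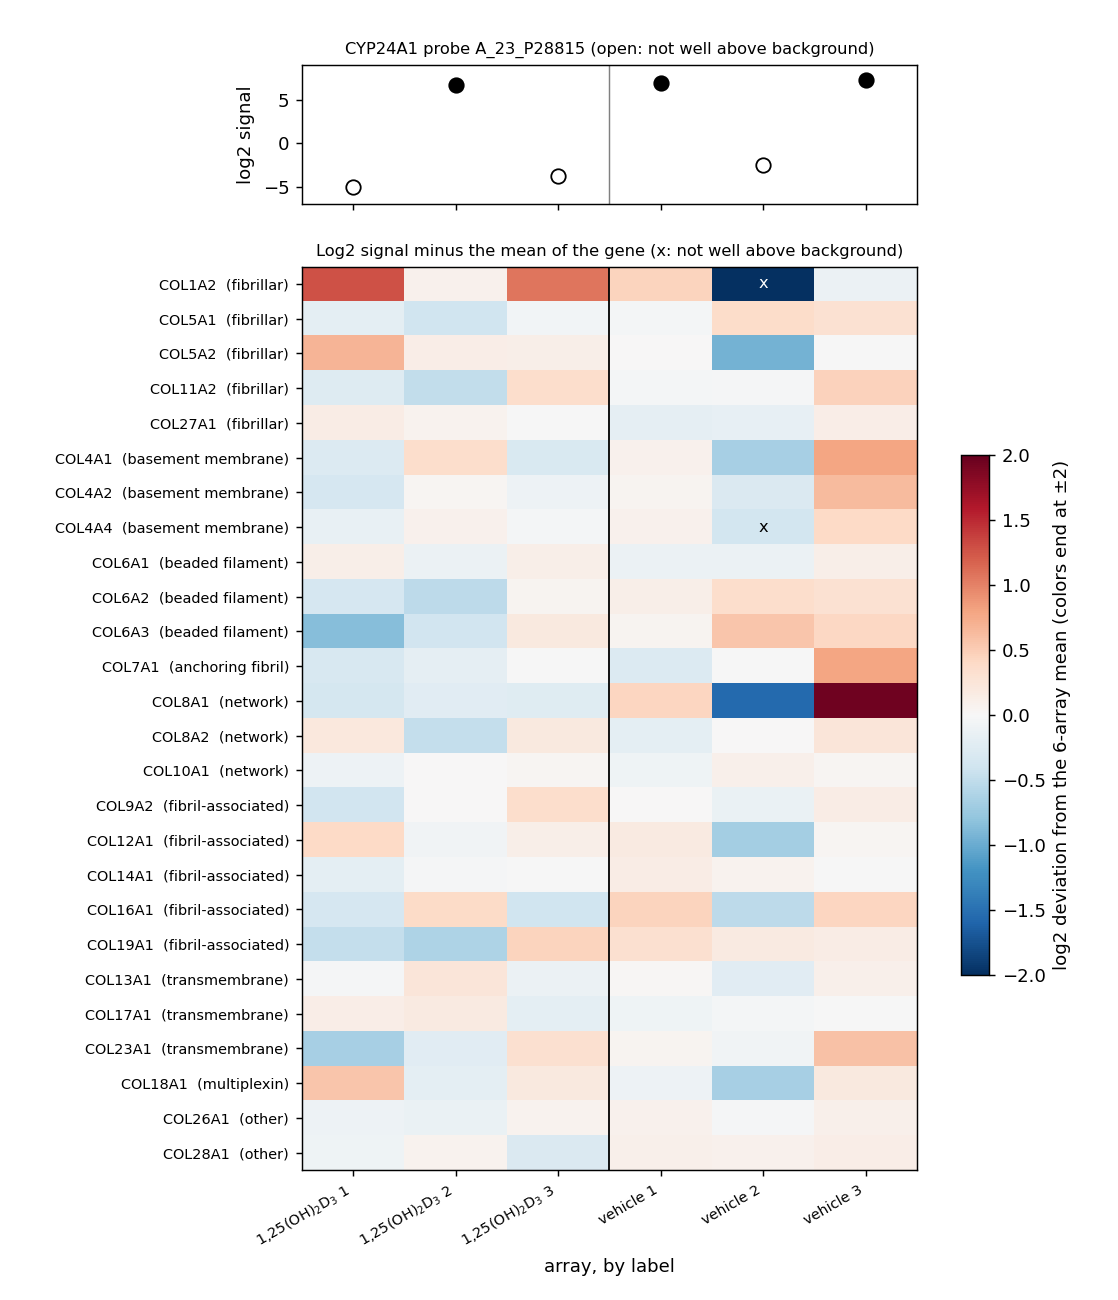
Top, log2 signal of the CYP24A1 probe on each array (open, not well above background). Bottom, log2 signal of the 26 tested collagen genes minus the mean of the gene over the 6 arrays, by class, with a cross where the probe was not well above background. COL1A2 and COL8A1 have the widest spread, and the array labelled vehicle replicate 2 is the lowest for 9 genes.

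The spread of a collagen over the 6 arrays ran from 0.2 for COL10A1 to 4.02 for COL1A2, with a median of 0.91. It was under 0.5 for 8 genes and over 1 for 10. The array labelled vehicle replicate 2 was the lowest of the 6 for 9 of the 26 collagens, and for 17.5% of all probes tested. The array labelled vehicle replicate 3 was the highest for 10 of the 26, and for 17.9% of all probes. With the slide as a block the log2 fold change changed sign for 9 of the 26. The sign was kept for 18 of the 26 whichever array was left out.

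The other genes of the pathway were 41 genes that modify, export, process, cross-link or bind collagen. ADAMTS14 had no probe, and of the 40 measured, 34 were tested. In limma 0 passed an adjusted p under 0.05 with the Benjamini-Hochberg adjustment. At an unadjusted p under 0.05, 4 of 34 passed in limma (6.46% of all probes) and 1 in the methods' t-test (5.51% of all probes). None was past 2-fold with an unadjusted p under 0.05 (0.812% of all probes), and with the slide as a block 3 were (1.25% of all probes), DDR2 upwards and P4HA1 and PLOD1 downwards. DDR2 was well above background on all 3 arrays labelled 1α,25(OH)2D3 and on 0 of 3 labelled vehicle, so it was tested only through the label in which it read higher. The log2 fold change was above 0 for 10 and below 0 for 24, with a median of -0.08. The median was 0.002 over all probes tested and -0.019 over those matching a protein-coding transcript. Apart from DDR2, the labels did not overlap for PLOD1, ITGB1, BMP1 and P4HB, which read lower under 1α,25(OH)2D3 (5.18% of all probes). DDR2 alone read higher without overlap (6.3% of all probes), against vehicle values at background.

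PLOD1, a lysyl hydroxylase that prepares collagen for cross-linking, read 3.89, 4.14 and 3.55 under 1α,25(OH)2D3 and 4.62, 4.91 and 4.14 under vehicle. Replicate 2 of the former and replicate 3 of the latter met at the edge of the ranges, and the log2 fold change was -0.70 ± 0.247 (SE). DDR2, a receptor kinase for fibrillar collagen, read -2.77, -2.30 and -1.82 under 1α,25(OH)2D3, and its vehicle values of -3.03, -3.15 and -3.00 were not well above background. Each vehicle array was then counted at the lowest signal of any probe well above background there, or at its own signal if higher. So counted, DDR2 read 1.36-fold higher under 1α,25(OH)2D3. This is not a lower limit. The measured log2 fold change was 0.77 (adjusted p = 0.711, limma with Benjamini-Hochberg adjustment), and 0.18 with normexp background correction.

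ITGA1, the α chain of a collagen-binding integrin, read 0.61, -0.04 and 0.44 under 1α,25(OH)2D3 and 0.05, -1.42 and -0.16 under vehicle. The labels overlapped, and the log2 fold change of 0.85 ± 0.384 (SE) was 0.39 without the array labelled vehicle replicate 2. P4HA1, a prolyl hydroxylase, read 0.24, 0.65 and -0.31 under 1α,25(OH)2D3 and 0.68, 1.34 and 0.41 under vehicle. Its labels overlapped, and the log2 fold change was -0.62, against -1.12 with the slide as a block and -0.35 without the array labelled vehicle replicate 2.

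COLGALT2, a collagen galactosyltransferase, read -2.76, -3.54 and -2.27 under 1α,25(OH)2D3, well above background on 2 of the 3, and -2.37, -2.13 and -2.23 under vehicle. It was thus tested only through the vehicle label, in which it read higher. Its log2 fold change was -0.61, against -0.02 with the slide as a block and -0.27 when replicate 2 of 1α,25(OH)2D3 was left out. MIA2, which acts in the export of collagen from the endoplasmic reticulum, read 1.15, 0.86 and 1.11 under 1α,25(OH)2D3 and 0.93, 0.73 and 0.54 under vehicle. The labels overlapped, and the difference was 0.30 on the log2 scale.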

How the data were processed

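RNA of SKOV3 cells was hybridised to 6 single-color Agilent arrays, 3 per label. The authors scanned them with Feature Extraction 10.7.1.1 and deposited, for each spot, an intensity on a linear scale, background-corrected by the software, with quality flags. They also deposited a table of log2 values, which the values show to be quantile-normalized (sorted columns differed by at most 0.000913).

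From the intensity, control and outlier spots were left out, spots of a probe were averaged, and log2 values were taken minus the 75th percentile of the array. Of 125601 probes, 17 had no value. Probes were matched without mismatch to GENCODE 44 and hg38. Promoters came from RefSeq (GRCh38.p14). The scanner files name hg19, and none of its coordinates were used. The labels were compared with limma 3.58.1 in R 4.3.3, on probes above background throughout at least 1 label, with Benjamini-Hochberg adjustment over all 63332 probes. The fit was tested on simulated data. The methods' t-test is the unpaired test that the study names for its experimental data. For the arrays it names limma.

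Values on every array are given for chains named for their role, genes past 2-fold with an unadjusted p under 0.05, genes whose labels do not overlap, the 5 largest changes in each direction and the 5 widest spreads. In the biosynthesis list they are the 3 largest in each direction. Members and lists were chosen with earlier results of these data known. CYP24A1 is given on each array, and the arrays were not grouped by it, since it is a measured signal and not a label. The number of arrays limits the precision. Alternatives covered normalization, background correction, dim probes, slide, replicate number, test, probe choice and each array left out. One further marker gene that was measured is not reported here.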

Additional observations from a re-analysis of the deposited data

How the results depend on the processing

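The count of collagens at an adjusted p under 0.05 was 0 under every alternative run, the methods' t-test included. The count past 2-fold with an unadjusted p under 0.05, which was 0, became 1 with normexp background correction and 1 with the replicate number as a block (COL1A2 both times). Leaving out 1 array gave 0 to 1 (COL1A2 at 2.24 without vehicle replicate 1, COL8A1 at -1.47 without vehicle replicate 2). For the biosynthesis list the same count, 0, became 3 with the slide as a block and with slide 2 alone (DDR2, P4HA1 and PLOD1), and 0 to 1 when 1 array was left out (DDR2 without 1α,25(OH)2D3 replicate 1, ITGA1 without vehicle replicate 1). The log2 fold change of COL19A1 was 0.22 with the slide as a block and on slide 2 alone, and that of COL27A1 was -0.07 with its second brightest probe. Leaving out 1 array moved COL4A1 between -0.51 and 0.21 and COL8A1 between -1.47 and 0.28. The median over the collagens tested stayed between -0.22 and 0.02 when 1 array was left out. It was -0.03 with the slide as a block and on slide 2 alone, against -0.13 as reported. With normexp the log2 fold change was -0.26 for COL6A3, -0.20 for COL19A1, 1.02 for COL1A2, -0.15 for COLGALT2, 0.54 for ITGA1 and 0.18 for DDR2. The cause of these changes was not tested. The number of collagens above background on all 6 arrays was 29 with the weaker flag of the scanner software. Chosen after seeing the data, the deposited values and quantile normalization gave 4 collagens whose labels did not overlap, as reported, and normexp gave 3. The deviations of same-numbered arrays from their label means correlated at 0.124, 0.094 and -0.035. Differently numbered arrays were not compared in this way, so whether the replicate numbers pair the samples was not settled. With 3 arrays a label, the intervals of the log2 fold changes are wide.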
